A study of Mus musculus with 238 samples.

Results

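The hypoxia-inducible factor (HIF) system was followed through 5 genes of 21076 in the count table: the oxygen-regulated subunits Hif1a, Epas1 (which encodes HIF-2 alpha) and Hif3a, and the prolyl hydroxylases Egln1 and Egln3. They were chosen by name as the rows of these genes in every brain region and in liver. Earlier results of these data, in which Hif3a stood out between diets, were known when the set was made. Therefore the diet contrast in brain is given here as a description without a test for all 5 genes, and these genes are tested only in contrasts that played no part in the choice.

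The samples came from C57BL/6JN mice aged 19 months, in experiments that differed in sex. In the diet experiment, females were either dietary restricted (aDR, 5 mice, numbers 61, 62, 64, 65 and 67; their liver libraries carry the label DR) or fed ad libitum (AL, 4 mice, numbers 63, 66, 68 and 69). In the plasma experiment, males had retro-orbital injections of young mouse plasma (YMP, 3 mice, numbers 73, 77 and 81) or of phosphate-buffered saline (PBS, 4 mice, numbers 72, 76, 80 and 84). Bulk RNA was sequenced from 15 brain regions, giving 131 brain libraries for diet and 98 for plasma, and from the liver of the 9 mice of the diet experiment. Sex and experiment cannot be told apart, so the experiments are set side by side and not compared. The mouse is the unit of replication, since the regions of 1 mouse share the animal. Levels by region, liver against brain and region by plasma terms were nevertheless tested on libraries without a mouse term.

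HIF alpha subunits are made all the time and are destroyed while oxygen is plentiful. Prolyl hydroxylases of the Egln family use oxygen to mark them, and the Vhl ubiquitin ligase then takes them to the proteasome; when oxygen is short they persist, pair with Arnt and bind DNA at sites with the core ACGTG or GCGTG. Hif1a is best known for switching on glycolysis, Epas1 is strongly expressed in endothelial cells and some glia, and Hif3a is made as several splice forms, some of which lack the activating part and hold the other subunits back. Egln1 is the main oxygen sensor of the family, and Egln3 is itself a classical HIF target. These libraries measure mRNA, whereas the oxygen-dependent step acts on protein.

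The genes lie on 4 chromosomes of the mouse build GRCm38. Hif3a spans chr7:17031507-17062427 on the minus strand, Epas1 spans chr17:86753700-86833410 on the plus strand, and Egln1 spans chr8:124908587-124949324 on the minus strand. Hif1a at chr12:73901375-73947530 on the plus strand and Egln3 at chr12:54178981-54203860 on the minus strand share a chromosome. The antisense gene Gm15283 spans the whole of Hif1a, with 330 bases where exons of both overlap, and the same-strand gene Gm49321 overlaps it over 9878 bases, 148 of them exonic in both. Because the libraries are unstranded, reads of Hif1a and of its antisense partner cannot be told apart and the Hif1a counts are uncertain to that extent. AC096777.1 (same strand, 1379 bases) overlaps Epas1 and 4833404L02Rik (opposite strand, 908 bases) overlaps Hif3a, neither of them at an exon of the member, and no annotated gene overlaps Egln1 or Egln3.

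The promoter windows of Hif3a and Egln3 are shown because these were the members whose mouse values did not overlap between diets. Each runs from 250 bases before the start of transcription to 50 bases after it, is written 5′ to 3′ on the strand of the gene, and is taken from RefSeq on GRCm38.p6. Capitals mark ACGTG and GCGTG, the forms of the HIF-binding core, which were searched on both strands, so that a match on the opposite strand reads CACGT or CACGC.
Hif3a, chr7:17062378-17062677, minus strand: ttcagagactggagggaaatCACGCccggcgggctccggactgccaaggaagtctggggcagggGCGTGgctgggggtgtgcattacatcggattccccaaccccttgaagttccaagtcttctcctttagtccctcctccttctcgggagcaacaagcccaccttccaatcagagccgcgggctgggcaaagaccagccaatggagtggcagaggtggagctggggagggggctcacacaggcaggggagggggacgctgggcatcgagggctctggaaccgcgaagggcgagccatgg
Egln3, chr12:54203825-54204124, minus strand: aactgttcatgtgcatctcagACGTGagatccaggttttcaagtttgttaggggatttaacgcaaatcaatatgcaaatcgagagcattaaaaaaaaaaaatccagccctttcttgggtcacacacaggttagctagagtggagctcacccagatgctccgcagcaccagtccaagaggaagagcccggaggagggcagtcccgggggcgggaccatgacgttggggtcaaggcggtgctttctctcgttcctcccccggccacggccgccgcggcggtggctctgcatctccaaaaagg

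RefSeq windows were found for 4 of the 5 members, with none for Epas1. The Hif3a window holds GCGTG at 2 places, beginning 230 bases before the start on the opposite strand and 186 bases before it on the strand of the gene, and no ACGTG. The Egln3 window holds ACGTG once, beginning 229 bases before the start, and no GCGTG. The Egln1 window holds each form once, ACGTG at 68 and GCGTG at 126 bases before the start. In the Hif1a window ACGTG occurs 3 times, of which 2 are the strands of 1 palindrome, CACGTG, and GCGTG is not found. The RefSeq window of Hif1a, chr12:73907617-73907916, lies inside the gene span given above and not at its beginning. Of 32851 RefSeq windows of this length, 19.6% hold ACGTG, 32.4% hold GCGTG, 43.8% hold either and 7.15% hold CACGTG, so a match in a single window is common.

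Total counts per library ran from 0.606 to 32.4 M (M, 1e6 counts) with a median of 8.44 M, and 6 libraries held under 2 M. Region markers were highest where the labels place them for cerebellum, caudate putamen, hypothalamus, thalamus, olfactory bulb, cortex and medulla. Hippocampus markers were listed as well, and their level by region is not reported here. As brain mouse values in the 4 groups, 4 hepatocyte markers summed to 1.55 to 3.44 CPM (counts scaled to library size, per M). The summed level of 6 choroid plexus epithelium markers, among them Ttr and Folr1, varied widely in libraries taken next to the ventricles. It ran from 142 to 15181 CPM in libraries labelled choroid plexus, from 8.53 to 18214 CPM in corpus callosum and from 23.0 to 19726 CPM in SVZ. It also reached 3475 CPM in caudate putamen, 1902 in cerebellum, 1461 in thalamus, 1423 in anterior hippocampus and 313 in medulla. Results over all regions are also given without corpus callosum and choroid plexus, or without these and SVZ, where that moved them. The other regions with high values were kept in.

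Hif1a and Epas1 were abundant, with 95 to 4519 counts (median 1127) and 118 to 5643 counts (median 1208) per library. Egln1 had 10 to 811 counts (median 220). Hif3a and Egln3 were rare: Hif3a had 0 to 102 counts (median 19) with under 10 counts in 61 of 238 libraries, and Egln3 had 0 to 181 counts (median 16.5) with under 10 in 80 libraries. Scaled to the length of the annotated exons, the mean level of AL mice over the brain was 23.3 CPM per kilobase for Hif1a, 24.9 for Epas1, 7.40 for Egln1, 0.908 for Egln3 and 0.289 for Hif3a. Per length, Hif3a was the least abundant of the 3 alpha subunits in brain, and Egln3 was below Egln1.

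Hif3a mRNA was higher in the brains of aDR mice than of AL mice. As 1 value per mouse over the 15 regions, aDR mice 61, 62, 64, 65 and 67 had 4.39, 3.94, 3.64, 3.30 and 5.32 CPM, and AL mice 63, 66, 68 and 69 had 1.68, 1.69, 2.46 and 1.92 CPM. The lowest aDR mouse lay above the highest AL mouse, so the groups did not overlap. The log2 difference was 1.09 (SE 0.15, 5 mice against 4), a 2.12-fold higher level. This contrast is one that the choice of the gene rested on, and nothing is tested here; over all 15616 genes, 4.16% had aDR values wholly above AL values and 0.922% passed an adjusted p of 0.05 in limma in either direction. The difference was 1.10 without corpus callosum, choroid plexus and SVZ.

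**Figure D1:**
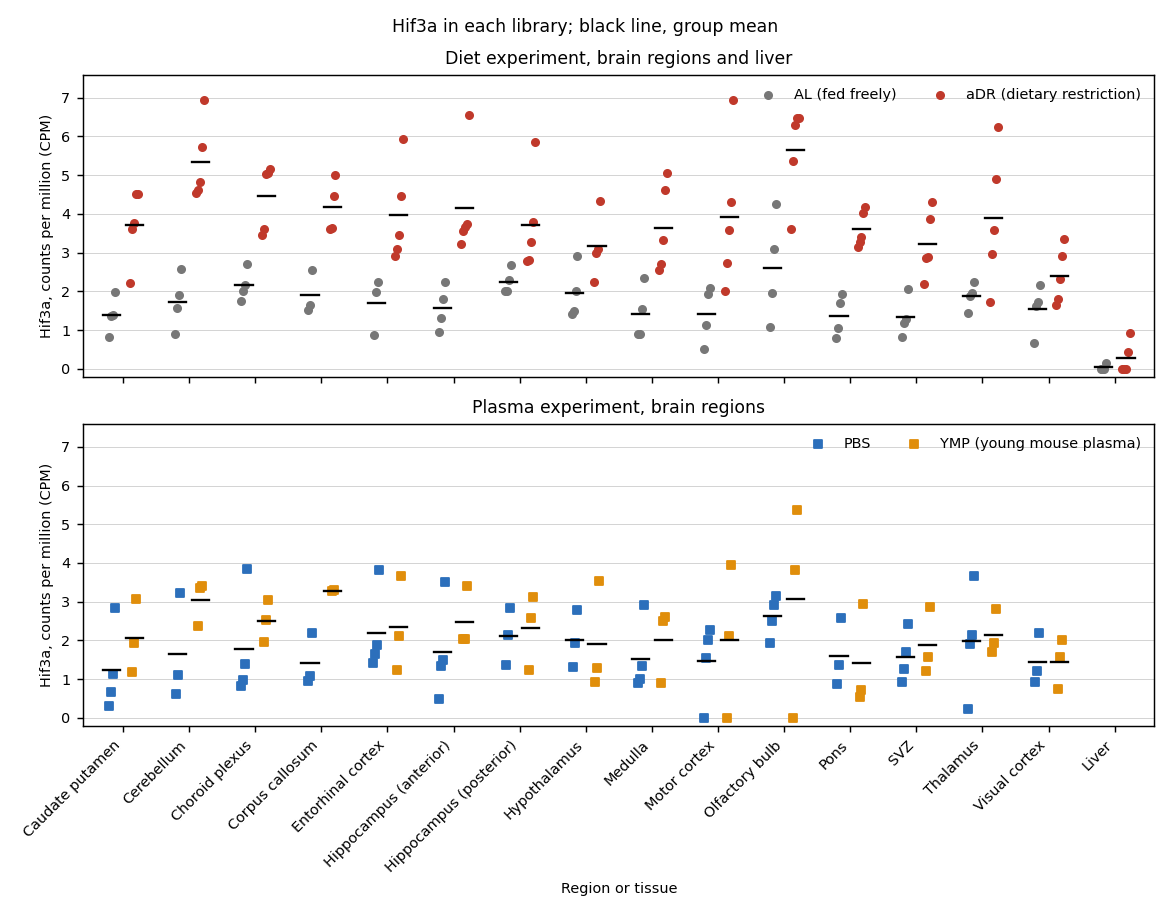
Hif3a level (CPM, vertical axis) of each library by region, with AL and aDR mice above and PBS and YMP mice below; points are libraries and black lines group means. The aDR means lie above the AL means in all 15 brain regions, and the liver libraries lie at or near 0.

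Hif3a was higher in aDR mice in each of the 15 regions fitted separately in edgeR, with log2 differences from 0.74 to 1.58 and a median of 1.21. Among all gene and region pairs of the diet experiment, 51% were higher. The largest difference was in cerebellum, where aDR libraries had 4.83, 6.94, 4.61, 4.53 and 5.74 CPM (mice 61, 62, 64, 65 and 67) and AL libraries 1.90, 1.58, 2.58 and 0.892 CPM (mice 63, 66, 68 and 69). There every aDR library was above every AL library (log2 difference 1.58, SE 0.26). In olfactory bulb, the region with the highest mean in both groups, aDR libraries had 6.48, 3.604, 5.37, 6.47 and 6.31 CPM and AL libraries 1.95, 1.08, 4.26 and 3.10 CPM. AL mouse 68 overlapped the aDR range there (log2 difference 1.11, SE 0.33).

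The smallest difference was in hypothalamus, with 4.34, 3.09, 2.25 and 3.00 CPM in aDR mice 62, 64, 65 and 67 against 2.92, 1.49, 1.43 and 2.01 CPM in the AL mice. Those groups overlapped (log2 difference 0.74, SE 0.31). In visual cortex the log2 difference was 0.90 (SE 0.34), with 2.32, 2.92, 1.64, 1.80 and 3.36 CPM in aDR mice against 1.61, 1.72, 2.17 and 0.668 CPM in AL mice. The groups were apart in 10 of 15 regions and overlapped in hypothalamus, motor cortex, olfactory bulb, thalamus and visual cortex; among all gene and region pairs 1.63% had aDR values wholly above AL values.

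Single aDR and AL mice kept a place in their group over many regions. Mouse 67 had the highest Hif3a level of the aDR mice in 9 of 15 regions and the lowest in none, while mouse 65 was lowest in 8 of 15. Among AL mice, number 68 was highest in 8 of its 13 regions. Without mouse 67 the Hif3a log2 difference was 0.99, and without mouse 68 it was 1.205.

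Summed over the 8 endothelial markers, mouse values were 252 to 280 CPM in aDR mice and 263 to 297 CPM in AL mice, and for 5 mural cell markers 112 to 131 and 125 to 143 CPM. Both vascular sums overlapped between diets. Astrocyte markers spanned 1649 to 1855 CPM in aDR mice and 1587 to 1826 CPM in AL mice, and 5 blood markers 4.46 to 22.1 and 5.83 to 8.68 CPM. Their part in the Hif3a difference was not tested. In bulk tissue, more cells of a type and more RNA per cell cannot be told apart.

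The other alpha subunits, Hif1a and Epas1, overlapped between diets. Hif1a was at 148, 140, 132, 143 and 136 CPM in aDR mice 61, 62, 64, 65 and 67 and at 136, 142, 135 and 135 CPM in AL mice 63, 66, 68 and 69. The groups overlapped, with a log2 difference of 0.025 (SE 0.039). Epas1 was at 145, 144, 141, 136 and 141 CPM in aDR mice and 135, 145, 138 and 139 CPM in AL mice. These overlapped as well (log2 difference 0.024, SE 0.032). By region, the one case in which a group of either gene stood apart was Hif1a in medulla. There aDR libraries had 148.9 to 174 CPM and AL libraries 138 to 148.6 CPM, and the log2 difference was 0.15 (SE 0.059). The groups nearly touched, and 1.63% of all gene and region pairs had aDR values wholly above AL values.

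The hydroxylases differed from each other. Egln3 was at 2.11, 1.91, 2.04, 2.01 and 2.12 CPM in aDR mice 61, 62, 64, 65 and 67 and at 2.30, 2.41, 2.49 and 2.47 CPM in AL mice 63, 66, 68 and 69. Every aDR mouse was lower than every AL mouse, as were 4.14% of all genes, and the log2 difference was -0.25 (SE 0.039). It was -0.31 without corpus callosum and choroid plexus. Egln3 had enough counts to be fitted in 12 of the 15 regions and was lower in 9 of them, from -0.60 (SE 0.27) in cerebellum to 0.33 (SE 0.43) in corpus callosum, and its groups overlapped in each of the 12. Egln1 was at 28.9, 27.7, 30.6, 29.0 and 26.9 CPM in aDR mice and at 26.4, 25.7, 28.1 and 26.1 CPM in AL mice. It was 0.11 higher on the log2 scale (SE 0.044) with overlapping groups, and it was above 0 in 14 of 15 regions, from -0.0075 to 0.28.

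**Figure D2:**
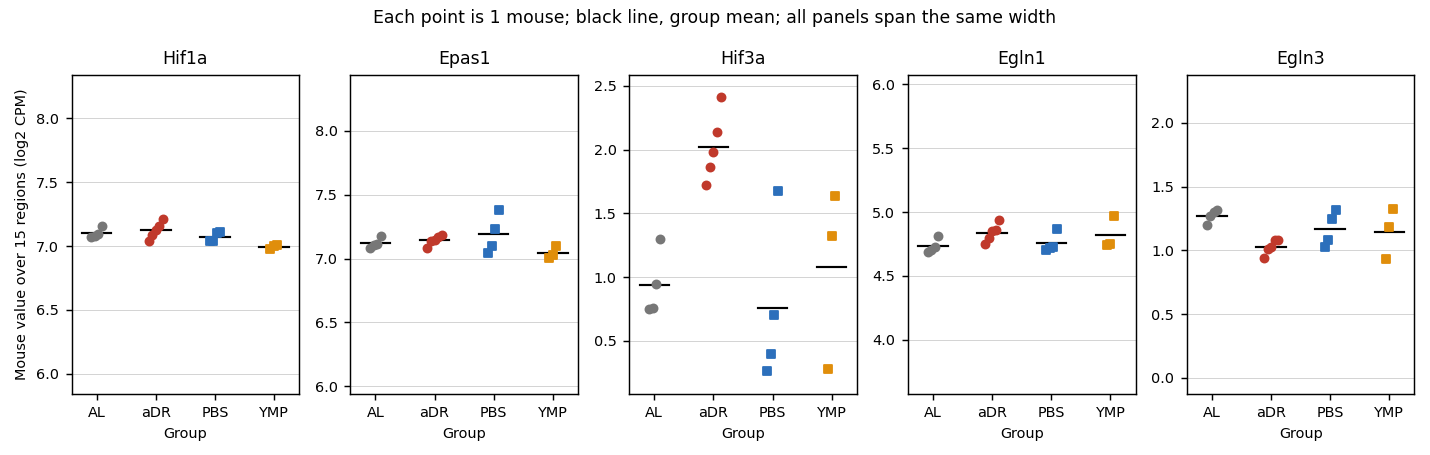
Mouse value over 15 brain regions (log2 CPM, vertical axis) of each member in AL, aDR, PBS and YMP mice; points are mice, black lines group means, and every panel spans the same width. Hif3a is apart between AL and aDR mice and spreads most within the PBS and YMP groups, whereas Hif1a and Epas1 lie close together.

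Liver libraries of the same mice were not part of the choice. Hif3a was at 0, 0, 0 and 1 counts in AL livers and at 3, 0, 0, 0 and 2 counts in DR livers of mice 61, 62, 64, 65 and 67. Pooled, this is 0.0530 CPM (95% exact Poisson interval 0.00134 to 0.295) in AL and 0.251 CPM (0.0815 to 0.586) in DR livers, which cover counting error only. At these levels no diet difference was detectable, and the gene was too low to be fitted. The 58 AL brain libraries held 980 counts, or 1.75 CPM, a ratio to AL liver of 33.1 (95% interval 5.92 to 1307, counting error only).

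The other members showed no diet difference in liver that passed the test (edgeR, 5 DR against 4 AL, 11815 genes tested, of which 0.22% passed an adjusted p of 0.05). Epas1 was at 347, 219, 268, 257 and 406 CPM in DR livers and at 280, 198, 231 and 275 CPM in AL livers (log2 difference 0.31, SE 0.19, adjusted p = 0.711). Hif1a was at 64.0 to 140 CPM in DR and 72.6 to 111 CPM in AL livers (0.10, SE 0.22, adjusted p = 0.963). Egln3 was at 10.6, 8.67, 8.85, 11.7 and 28.0 CPM in DR livers and 15.2, 12.2, 11.2 and 12.04 CPM in AL livers. It had a log2 difference of 0.13 (SE 0.34, adjusted p = 0.973), and -0.34 without DR mouse 67, whose liver was the highest. Egln1 was at 9.68 to 28.4 CPM in DR and 13.3 to 31.4 CPM in AL livers (0.060, SE 0.37, adjusted p = 0.989).

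Against the mean of the 15 brain regions of AL mice, liver had less Hif1a and Egln1 and more Epas1 and Egln3 (edgeR, all 4 past the test, beside 86.2% of 15876 genes). Egln3 was 5.83-fold higher in liver (log2 2.54, SE 0.22, adjusted p = 1.36e-15). Epas1 was 1.84-fold higher (log2 0.88, SE 0.089, adjusted p = 5.13e-13). Hif1a was lower by a log2 difference of -0.57 (SE 0.070, adjusted p = 2.21e-10). Egln1 was lower by -0.43 (SE 0.13, adjusted p = 0.00195), a call that was lost without AL mouse 63 (adjusted p = 0.0696) or 69 (adjusted p = 0.0973).

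Young plasma changed none of the 5 members past the test. In limma on 1 value per mouse, 0 of 15768 genes (0%) passed an adjusted p of 0.05, while 1275 had an unadjusted p under 0.05. Hif3a was at 1.22, 3.10 and 2.501 CPM in YMP mice 73, 77 and 81 and at 1.2005, 1.32, 1.63 and 3.19 CPM in PBS mice 72, 76, 80 and 84. PBS mouse 84 was the highest of all 7, and the groups overlapped. The log2 difference was 0.32 (SE 0.42, 95% interval -0.77 to 1.41, adjusted p = 0.857). It was 0.041 without YMP mouse 77 and 0.73 without YMP mouse 73.

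PBS mouse 84 had the highest Hif3a level of the PBS mice in 15 of 15 regions. In caudate putamen the PBS libraries had 0.316, 0.663, 1.14 and 2.83 CPM in mice 72, 76, 80 and 84. In choroid plexus they had 1.403, 0.831, 0.985 and 3.86 CPM. The same mouse was also highest for Epas1 in 13 of 15 regions. Among YMP mice, number 77 was highest for Hif3a in 10 of 15 regions and number 73 lowest in 11 of its 14.

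Hif1a was at 128, 128 and 126 CPM in YMP mice 73, 77 and 81 and at 132, 137, 132 and 138 CPM in PBS mice 72, 76, 80 and 84. Every YMP mouse lay below every PBS mouse, as was so for 5.34% of all genes, but the difference did not pass the test (log2 -0.081, SE 0.039, adjusted p = 0.644). Epas1 was at 128, 137 and 131 CPM in YMP mice and 151, 137, 132 and 167 CPM in PBS mice (log2 -0.14, SE 0.085, adjusted p = 0.692). Without PBS mouse 84, the highest, it was -0.086. Egln1 was at 26.9, 31.3 and 26.7 CPM against 29.2, 26.3, 26.03 and 26.5 CPM (0.065, SE 0.073, adjusted p = 0.839). Egln3 was at 1.91, 2.499 and 2.28 CPM against 2.37, 2.49, 2.04 and 2.12 CPM (-0.021, SE 0.11, adjusted p = 0.965).

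No dependence of the plasma difference on region passed the test for any member. A test of the 14 region by plasma terms in edgeR gave adjusted p = 0.795 for Hif1a, 0.873 for Egln3 and 1 for Epas1, Hif3a and Egln1, while 0.824% of all genes passed. Within regions, 0 of 70 member and region pairs passed in edgeR, beside 0.0127% of all pairs, and 0 in DESeq2, while 5 had an unadjusted p under 0.05. Those lower in YMP mice were Epas1 in SVZ (log2 -0.39), medulla (-0.38) and choroid plexus (-0.27) and Hif1a in choroid plexus (-0.27). The one higher was Hif3a in corpus callosum. The share of all plasma pairs at that unadjusted level is not reported here. The largest Hif3a difference was in corpus callosum, where YMP mice 77 and 81 had 3.30 and 3.28 CPM and PBS mice 76, 80 and 84 had 0.955, 1.08 and 2.19 CPM. These groups were apart but small (log2 1.29, SE 0.44, adjusted p = 0.437), and 4.55% of all plasma pairs had YMP values wholly above PBS values. That share pools all regions, and the others had more libraries, whereas smaller groups are apart more often by chance. Summed choroid plexus markers had mouse values of 26.8 to 77.9 CPM in PBS and 8.50 to 19.8 CPM in YMP mice. These groups did not overlap, which was not tested, and 5.34% of single genes lay wholly lower in YMP mice. Without corpus callosum, choroid plexus and SVZ the plasma log2 difference over the other regions was 0.26 for Hif3a and -0.043 for Hif1a.

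**Figure D3:**
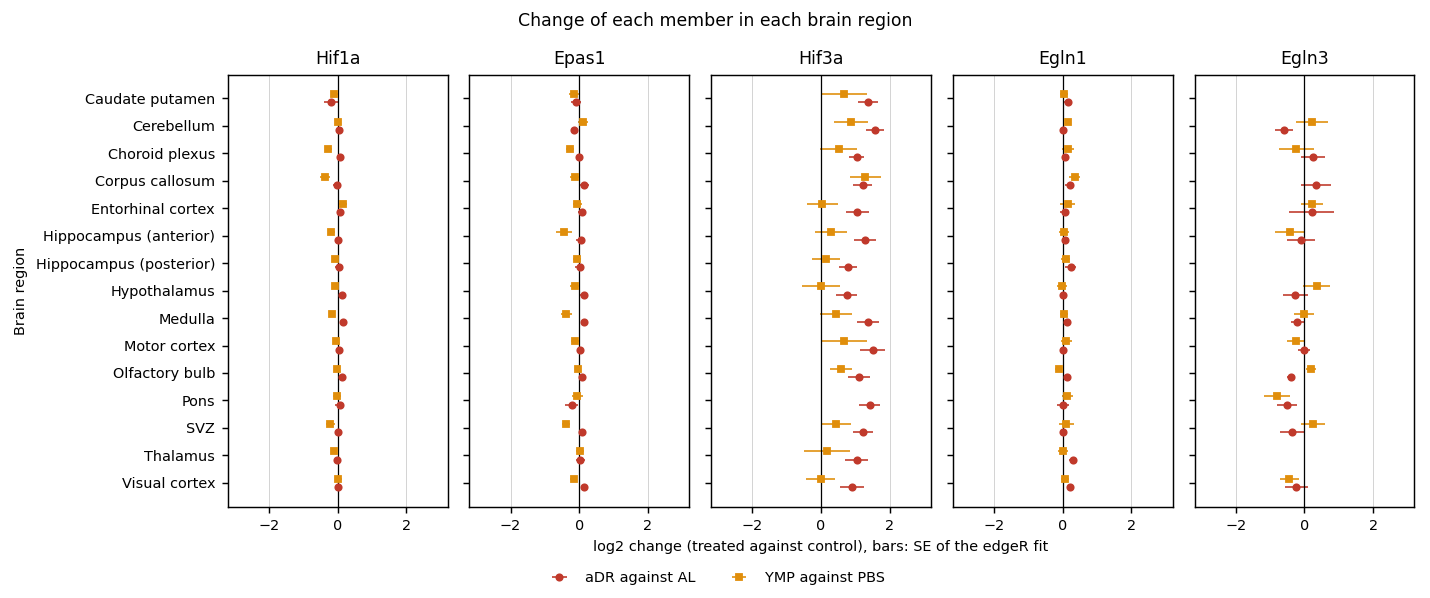
log2 change of each member in each brain region (horizontal axis; bars are SE of the edgeR fit), aDR against AL as circles and YMP against PBS as squares. For diet, Hif3a lies to the right of 0 in all 15 regions and Hif1a, Epas1 and Egln1 lie closer to 0; Egln3 (and Hif3a in pons for plasma) is missing where its counts were too low to fit.

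Regional levels were tested in the control groups of both experiments, on libraries without a mouse term. In AL mice 98.1% of 15324 genes and in PBS mice 96.1% of 15415 genes differed between regions at an adjusted p of 0.05 (edgeR F test over 15 regions), and Hif1a, Epas1, Egln1 and Egln3 were among them in both. Hif3a was not (adjusted p = 0.361 in AL and 0.919 in PBS). Its region means ran from 1.34 CPM in SVZ to 2.60 CPM in olfactory bulb in AL mice, and from 1.24 CPM in caudate putamen to 2.63 CPM in olfactory bulb in PBS mice. Olfactory bulb was above the other 14 regions in AL mice (log2 0.60, SE 0.25, adjusted p = 0.0329, beside 33.6% of all genes higher there), and in PBS mice it did not pass (0.68, SE 0.41, adjusted p = 0.145, beside 32.4%). Of 105 pairs of regions, 5 differed for Hif3a in AL mice, each of them against olfactory bulb, and 0 in PBS mice. No neighbours in the order of the Hif3a means differed past the test.

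Hif1a was highest in cerebellum. AL cerebella had 213, 236, 228 and 245 CPM in mice 63, 66, 68 and 69, and PBS cerebella had 228, 216 and 251 CPM in mice 72, 80 and 84. Next in order were pons in AL mice at 156 CPM ± 11.4 (SD, n = 4) and medulla in PBS mice at 154 CPM ± 13.4 (SD, n = 4), so no other region reached the cerebellar range. Cerebellum was above the other 14 regions by a log2 difference of 0.84 (SE 0.050, adjusted p = 6.76e-20) in AL mice and 0.88 (SE 0.064, adjusted p = 8.77e-16) in PBS mice, beside 32.6% and 29.7% of all genes higher there. Motor cortex (111 CPM in both groups) and visual cortex (114 and 107 CPM) had the lowest means. Below cerebellum, no neighbours in the order differed past the test in either group.

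Epas1 went the other way in cerebellum. AL cerebella had 91.2, 97.7, 137 and 94.4 CPM and PBS cerebella 90.4, 82.7 and 131 CPM, the lowest region means of both groups. The log2 difference from the other regions was -0.40 (SE 0.10, adjusted p = 0.000514) in AL and -0.53 (SE 0.14, adjusted p = 0.00113) in PBS mice, beside 31.6% and 28.7% of all genes lower there. The highest means were in pons in AL mice (181 CPM ± 9.50, SD, n = 4) and in medulla in PBS mice (190 CPM ± 40.9, SD, n = 4). No neighbours in the order differed past the test, so the order of the regions in between is not resolved.

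Egln1 was highest in caudate putamen, with 33.7, 37.6, 37.4 and 31.7 CPM in AL mice 63, 66, 68 and 69 and 42.5, 36.7, 32.4 and 36.1 CPM in PBS mice 72, 76, 80 and 84. This was above the other regions by 0.48 (SE 0.083, adjusted p = 2.85e-06) and 0.52 (SE 0.097, adjusted p = 2.32e-05) on the log2 scale, beside 28.6% and 23.2% of all genes higher there. Visual cortex followed at 30.8 and 31.7 CPM and was not separable from caudate putamen (adjusted p = 0.194 and 0.281). Olfactory bulb in AL mice (21.3 CPM) and pons in PBS mice (20.5 CPM) were lowest.

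Egln3 had the widest regional range, a log2 span of 4.68 in AL and 4.17 in PBS mice, where the median gene spanned 1.354 and 1.403. Olfactory bulbs had 13.3, 11.5, 14.9 and 10.5 CPM in AL mice and 10.5, 11.2, 10.6 and 9.43 CPM in PBS mice, well above every other region. The next means were 5.18 CPM ± 1.18 (SD, n = 4) in medulla of AL mice and 4.66 CPM ± 0.873 (SD, n = 4) in motor cortex of PBS mice. The log2 difference of olfactory bulb from the other regions was 2.68 (SE 0.20, adjusted p = 3.67e-16) and 2.56 (SE 0.20, adjusted p = 6.19e-15). Caudate putamen, where Egln1 was highest, had 0, 0.772, 0.277 and 0.820 CPM of Egln3 in AL mice, the lowest of the AL means, and 0.865 CPM ± 0.652 (SD, n = 4) in PBS mice.

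**Figure D4:**
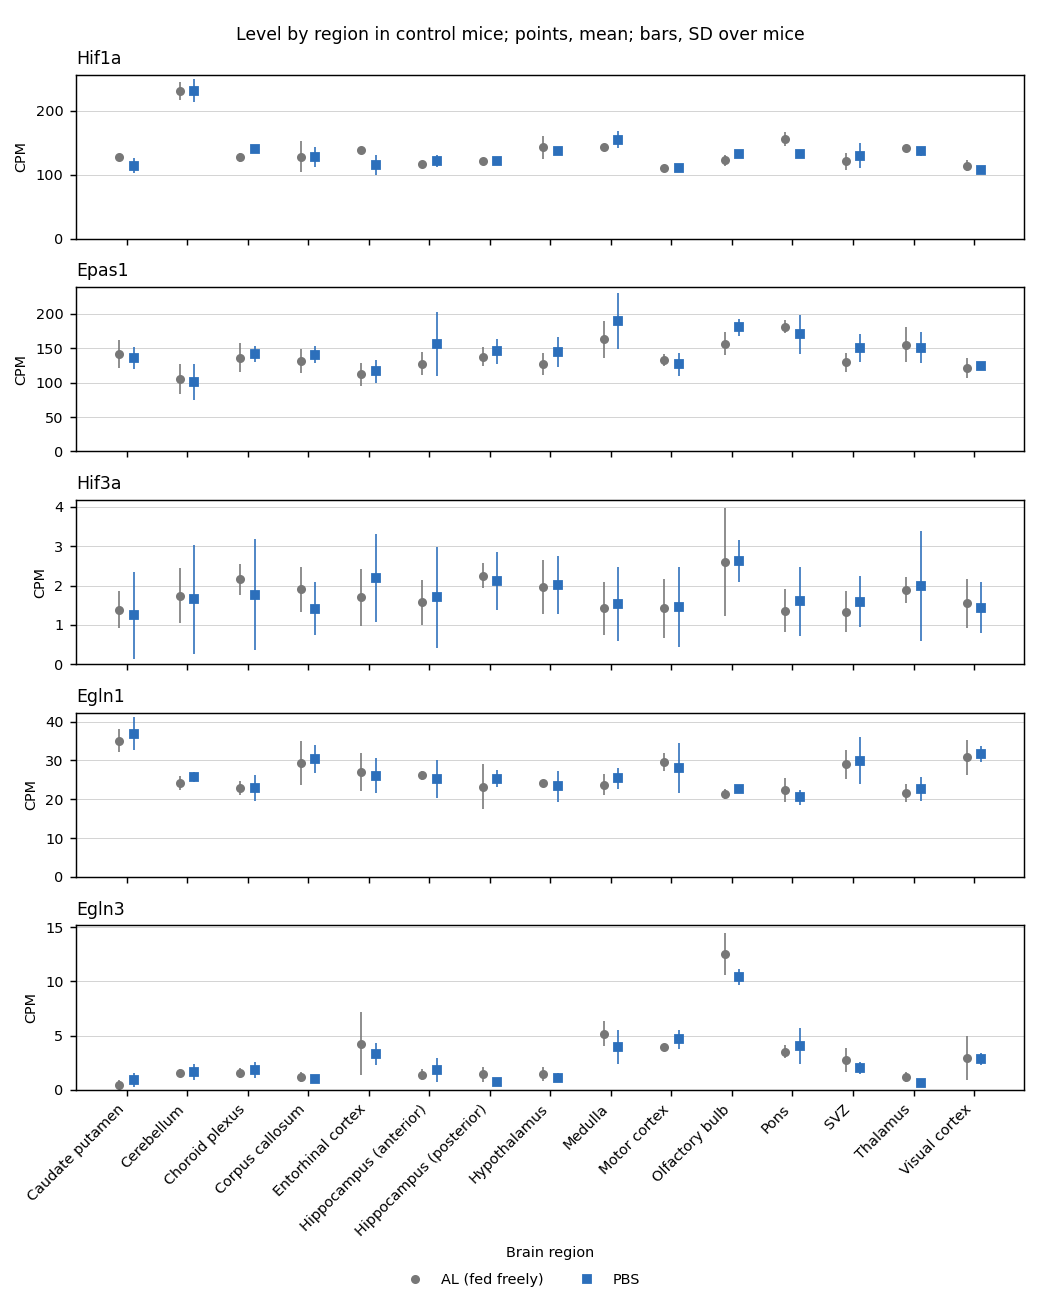
Mean level (CPM, vertical axes from 0) of each member by brain region in AL (circles) and PBS (squares) control mice; bars are SD over mice. Hif1a peaks in cerebellum, Egln1 in caudate putamen and Egln3 in olfactory bulb in both groups, while Hif3a bars overlap between most regions.

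The region means of the control groups could be set side by side. Over the 15 regions, Pearson's r between AL and PBS mice was 0.887 for Hif1a, 0.862 for Epas1, 0.681 for Hif3a, 0.930 for Egln1 and 0.934 for Egln3. Between members, r was -0.57 in AL and -0.56 in PBS mice for Egln1 and Hif3a, -0.20 and -0.18 for Hif1a and Epas1, and 0.28 in both groups for Epas1 and Egln3. The genes most like Hif1a, by the lower of its r in AL and PBS mice over 13404 genes of at least 2 CPM, were Tspan4 (0.903), Gabra6 (0.891), Appl2, Cnpy1 and Trabd. For Epas1 they were Cyp2j6 (0.870), Mfsd2a, Eml2, Ano4 and Chrm2, and for Egln1 Arpp19 (0.879), Ap1ar, Rnf144a and Rnf166. For Egln3 they were Cped1 (0.876), Col1a2, Slc13a3, Lrrk1 and Ptgds. The values for Hif3a were lower, with Carmil3 (0.665) first, followed by Frmd4a, Znrf2, Sema4b and Polr2a. These are descriptions over 15 means that share mice and dissections.

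Within regions and groups, libraries could also be ranked by how they departed from their own mean. For Hif3a the genes that departed most alike in both experiments were Acer2, an alkaline ceramidase (r = 0.473 over 131 diet and 0.483 over 98 plasma libraries), and Plin4, a lipid droplet coat protein (0.521 and 0.466), followed by Klhl18, Abca9 and Map3k6. For Epas1 they were Acsl6, Flt1, Fgfr3, Adgrf5 and Gpam, with the lower r from 0.642 to 0.677. Epas1 also departed with the summed endothelial markers (r = 0.60 and 0.54), of which Flt1 is one, whereas for Hif3a that r was 0.23 and 0.072. Between members, r was 0.31 in diet and 0.38 in plasma libraries for Hif3a and Epas1, and 0.36 and 0.49 for Hif1a and Epas1. For every other pair of members the lower r was 0.152 or less. Such libraries share depth and mice, and Hif3a is sparse, so the values are given without a test.

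Of 14 genes of the HIF machinery (Arnt, Vhl and its partners, Hif1an, coactivators and others), 0 passed the test in either experiment in brain in limma, and the unadjusted p was under 0.05 for 2 in diet and 1 in plasma. Their median log2 change with diet was 0.0015, beside -0.0062 over all genes tested. Vhl, which recognises hydroxylated HIF, changed by -0.028 (SE 0.031, adjusted p = 0.719), Arnt, the shared partner, by -0.058 (SE 0.038, adjusted p = 0.495) and Egln2 by 0.073 (SE 0.038, adjusted p = 0.387). Hif1an, an asparagine hydroxylase that blocks HIF coactivator binding, did not pass the test (-0.17, SE 0.045, adjusted p = 0.116). Its aDR mice lay wholly below its AL mice, as did those of 4.14% of all genes. Cited2, a HIF-induced inhibitor, was at 0.16 (SE 0.053, adjusted p = 0.182).

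Among glycolytic HIF targets, 0 of the 19 tested passed with diet (limma; unadjusted p under 0.05 in 3), with a median log2 change of 0.0020. The glucose transporter Slc2a1 was at 0.18 (SE 0.059, adjusted p = 0.183) and the glycolytic regulator Pfkfb3 at -0.12 (SE 0.041, adjusted p = 0.200). Of 23 other HIF targets, with a median of -0.022, 1 rose and 1 fell with diet, beside 0.525% and 0.397% of all genes. The unadjusted p was under 0.05 in 7 of the 23, and the share of all genes at that level is not reported here. Mxi1, a Myc antagonist, rose by 0.15 (SE 0.027, adjusted p = 0.0412), and the VEGF receptor Flt1, an endothelial marker, fell by 0.26 on the log2 scale (SE 0.044, adjusted p = 0.0382). The part of the endothelial marker level given above in the Flt1 difference was not tested. The lists were put together with earlier results of this contrast known, so these calls are not independent evidence. Leaving out any 1 mouse left 0 or 1 of these calls: 1 without AL mouse 63 or aDR mouse 67, and 0 without each of the others. Vegfa, the best known HIF target, was at -0.068 (SE 0.037, adjusted p = 0.403).

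With plasma, 0 of 14, 0 of 19 and 0 of 23 genes of these lists passed in limma, with an unadjusted p under 0.05 in 1 of each list and medians of 0.034, 0.032 and 0.019 beside -0.0037 over all genes. The smallest p was that of Loxl2, a matrix cross-linking oxidase (-0.50, SE 0.092, adjusted p = 0.335). It was followed in its list by P4ha1, a collagen prolyl hydroxylase (0.18, adjusted p = 0.644). In the machinery list Cited2 (0.11, adjusted p = 0.518) and the ubiquitin ligase Siah2 (0.17, adjusted p = 0.644) came first, and in the glycolytic list the glucose transporter Slc2a3 (0.12, adjusted p = 0.536) and the pyruvate dehydrogenase kinase Pdk1 (-0.079, adjusted p = 0.644). Egln2 was at 0.099 (adjusted p = 0.692), Vhl at 0.071 (adjusted p = 0.710), Arnt at -0.018 (adjusted p = 0.926), Hif1an at 0.028 (adjusted p = 0.876) and Vegfa at -0.026 (adjusted p = 0.936). In liver, 0 of 12, 0 of 16 and 0 of 19 testable genes passed with diet in edgeR, with an unadjusted p under 0.05 in 1, 0 and 4. The transferrin receptor Tfrc (0.9995, SE 0.22, adjusted p = 0.103) and the adenylate kinase Ak4 (1.17, SE 0.27, adjusted p = 0.121) had the smallest p. List medians in liver were 0.15, 0.0041 and 0.14, beside 0.018 over all genes. Cited2 was at -0.44 (adjusted p = 0.377), Arnt at 0.33 (adjusted p = 0.610), Slc2a1 at 0.51 (adjusted p = 0.550) and the aldolase Aldoc at 0.57 (adjusted p = 0.600). Vhl (0.17), Egln2 (0.17), Hif1an (0.0011) and Vegfa (0.25) had adjusted p from 0.938 to 0.999. Within single brain regions, none of 797 listed gene and region pairs with diet and none of 801 with plasma passed in edgeR. Of all pairs, 0.0525% and 0.0127% passed. The unadjusted p was under 0.05 in 80 and 54 listed pairs, and the share of all pairs at that level is not reported here. In DESeq2, 7 and 3 of the listed pairs passed, where 524 and 931 pairs passed over all genes.

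**Figure D5:**
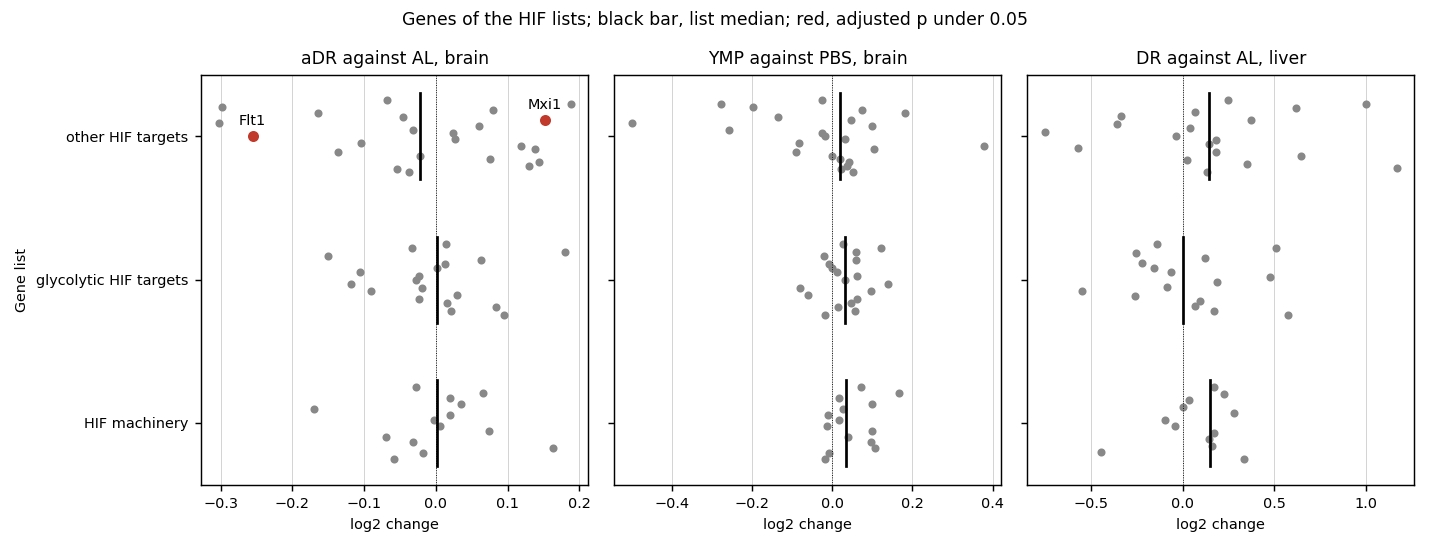
log2 change of each gene of the HIF lists (horizontal axis) for diet in brain, plasma in brain and diet in liver; black bars are list medians and red points passed an adjusted p of 0.05. Only Flt1 and Mxi1 are red, both for diet in brain.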

How the data were processed

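Read counts per gene were deposited by the authors as 1 table of 21076 genes and 238 libraries. Per the submitters' processing notes, Trim Galore 0.3.7, STAR 2.5.3a, DESeq2 and the build GRCm38 were used; the counter and annotation are not given in the sources used here. Per the labels' protocols, libraries were made by Smart-Seq2 and Nextera XT, which do not mark strand. Counts were scaled by TMM to CPM. Genes passed a filter of 10 counts (15 in total). For differences over brain, 1 value per mouse was taken from log2 CPM (prior count 2) as the effect of the mouse in a linear fit that also held region, and tested in limma 3.58.1 (R 4.3.3). Single regions, liver, levels by region and region by plasma terms were tested in edgeR 4.0.16 by quasi-likelihood; DESeq2 1.42.0 was an alternative. Adjusted p-values are Benjamini-Hochberg over all genes tested, with a threshold of 0.05. Scripts were tested on simulated data. The members and gene lists were chosen with earlier results of these data known; the planned count of member calls for diet within brain regions is therefore not given.

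The mouse number marks the same animal across regions and pairs no samples between treatments. For diet, deviations from group means correlated at a mean r of 0.047 between libraries of the same mouse and -0.0059 between mice. For plasma these values were 0.0985 and -0.0165. Genes named beside the members were the 5 most alike in pattern (1 of those for Egln1 is not reported here), the listed genes that passed (where fewer than 2 did, the 2 of smallest p), and Vhl, Arnt, Hif1an, Egln2 and Vegfa. Leaving out corpus callosum, choroid plexus and SVZ together was chosen after seeing the data. P-values of the fits on mouse values, within single regions and within liver measure the spread between mice. Levels by region, liver against brain and region by plasma terms were fitted on libraries without a mouse term. Their p-values treat libraries of 1 mouse as independent. With the mouse as a block, each member kept its side of the threshold in the F tests by region and the region by plasma tests. Tests of 1 region against the others were not repeated that way. Gene positions are from GENCODE M21.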

Additional observations from a re-analysis of the deposited data

Results flagged for a closer look

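A single sample stood apart from the rest of its group, by Dixon's test at 95%, in 10 of 210 groups of 4 to 10 samples examined, and chance alone flags about 1 in 20. For Hif1a, the lowest samples were the caudate putamen of aDR mouse 64 at 56.1 CPM (nearest 118), the pons of AL mouse 69 at 139 CPM (nearest 160) and the anterior hippocampus of PBS mouse 76 at 107 CPM (nearest 125). For Epas1 it was the highest AL cerebellum, that of mouse 68, at 137 CPM (nearest 97.7). For Hif3a, the anterior hippocampus of aDR mouse 67 had 6.56 CPM (nearest 3.74), and the liver of AL mouse 69 had 0.161 CPM, from 1 count, where the other AL livers had 0.

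For Egln1, the visual cortex of AL mouse 66 had 37.6 CPM (nearest 29.3), and PBS mouse 72 had a mouse value of 4.87 log2 CPM (nearest 4.73). For Egln3, the choroid plexus of aDR mouse 64 had 3.36 CPM (nearest 1.79) and the liver of DR mouse 67 had 28.0 CPM (nearest 11.7).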

How the results depend on the processing

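Over 50 results and 482 alternatives, 450 were counted as unchanged, by rules that differed with the kind of result. Tested differences had to keep their direction and side of the threshold, and F tests, which have no direction, only their side. Untested diet differences had to shift by less than the SD between mice of a group. Counts of genes or regions had to stay equal or similar. With all plasma libraries in limma-voom and no replicate block, which treats regions of 1 mouse as independent, Hif1a (-0.084, adjusted p = 0.0135), Epas1 (-0.15, adjusted p = 0.0104) and Hif3a (0.51, adjusted p = 0.0246) passed and Egln3 was at 0.0059. With the mouse as replicate block none of the members passed: Hif1a -0.084 (adjusted p = 0.193), Epas1 -0.15 (0.141), Hif3a 0.55 (0.120). Over all genes, 0 passed on mouse values, 468 with the mouse as block and 2629 without it. For diet, the mouse block gave 1.197 for Hif3a and -0.22 for Egln3.

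Diet Egln3 was -0.31 without corpus callosum and choroid plexus, and -0.31 also without SVZ. Over all genes DESeq2 passed 524 pairs for diet (edgeR 108) and 931 for plasma (edgeR 26). On leaving out 1 mouse at a time, other HIF targets passing ranged from 0 to 1 for diet in brain and 0 to 1 in liver (1 without DR mouse 61); plasma log2 differences ranged from -0.12 to 0.093 for Egln3, -0.012 to 0.10 for Egln1 and -0.20 to -0.086 for Epas1; liver differences ranged from -0.12 to 0.43 for Egln1, -0.082 to 0.22 for Hif1a and -0.34 to 0.26 for Egln3; and liver against brain ranged from -0.76 to -0.27 for Egln1. By Spearman's rho, 1 of 5 like genes was kept for Hif1a, 4 for Epas1, 2 for Hif3a, 3 for Egln1 and 1 for Egln3. The cause of these shifts was not tested. Low counts limit Hif3a and Egln3.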
